A study of Mus musculus with 4 samples.

Results

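A set of 8 genes that mark endocrine progenitors of the embryonic pancreas or dedifferentiated beta cells was followed in mouse islets kept at low and at high glucose: *Sox9*, *Neurog3*, *Pax4*, *Fev*, *Sox4*, *Sox11*, *Aldh1a3* and *Gast*. They were chosen by name, with earlier results of these data known, so shares among them set beside all transcripts are description only. Where a symbol had several entries, the one with the highest mean RPKM of the 4 libraries was kept. RPKM is read density normalised for length and sequencing depth. All 8 of the 24157 symbols in the deposited table were found, each with 1 distinct entry. Islets of male C57bl6 mice, 3 months old and wild type, were pooled, held overnight at 11 mM glucose and then for 2 h at 2.8 mM glucose. The LoGlu group was kept at 2.8 mM and the HiGlu group at 16.8 mM glucose, with 2 libraries each. The series' design text gives 12 h for both groups, whereas the labels give 2 h for the LoGlu and 12 h for the HiGlu libraries, so that a difference in time and a difference in glucose cannot be told apart if the labels hold. Each library came from 100 whole islets of mixed cell types and was made from total RNA. Because the islets were pooled, the p-values measure the spread between libraries, which may be technical. In such bulk samples fewer cells of a type and less RNA per cell cannot be told apart.

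In the embryo, multipotent pancreatic progenitors carry SOX9. Part of them switch on the basic helix-loop-helix factor NEUROG3, under the restraint of Notch signalling and its target HES1, and leave the cell cycle as endocrine precursors in which *Pax4*, *Fev* and the SoxC factors *Sox4* and *Sox11* are used. In diabetic models beta cells can lose insulin and mature transcription factors, and *Aldh1a3* and *Gast* are among the genes that come up in such cells, which has made them markers of beta cell dedifferentiation.

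The libraries held between 50740000 and 60630000 reads to 4 digits, as recovered from the steps of low RPKM values. Reads per gene were rebuilt from RPKM, depth and length, so that each level could be read with its count. The islet label was met by the hormones: *Ins2* was between 15943 and 30018 RPKM, *Gcg* between 1474 and 2155 and *Sst* between 440 and 692 RPKM. *Ins1* (adjusted p = 8.55e-05), *Iapp* (adjusted p = 0.00163), *Ins2* (adjusted p = 0.00224) and *Ucn3* (adjusted p = 0.0241) were higher in HiGlu by limma on log2(RPKM + 0.5). Acinar transcripts also differed between libraries, and the summed level of 15 acinar markers was 120 and 328 RPKM in LoGlu replicates 1 and 2 and 280 and 569 RPKM in HiGlu replicates 1 and 2.

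Of the 8 genes, 4 had both HiGlu libraries above both LoGlu libraries (*Sox4*, *Sox11*, *Aldh1a3* and *Gast*), compared with 22.0% of the 26272 entries that had any read. The reverse was seen in 1 gene, *Pax4*, against 38.2% of entries, and the groups overlapped in 3 genes. The genes were low, and only *Sox4* and *Neurog3* reached the mean of 1 RPKM required for the limma test. Neither passed the adjusted threshold of 0.05, while 33.4% of the 7867 transcripts tested did, and 10.7% were called higher in HiGlu. The higher calls were 31.9% of all calls, and 44.1% after median centring and 42.3% after quantile normalization. *Sox4* alone had an unadjusted p under 0.05. Without a minimum, limma called 3 of the 8 genes, all higher in HiGlu, against 4.56% of 26272 entries called higher and 14.1% in either direction. Voom, which is limma with weights for the precision of counts, was run on rebuilt reads and called the same 3 of the 7 genes it could test, against 12.7% of 16655 transcripts called higher and 40.3% called in either direction. Those genes were *Aldh1a3*, *Gast* and *Sox11*. The median change of the 7 genes by voom was 0.64 on the log2 scale, beside -0.13 for all transcripts. The 0.64 is the value of *Sox9*, which was not called (adjusted p = 0.211, voom) and was 0.0093 without HiGlu replicate 2. *Sox11* and *Pax4* were near 0, that is under a mean of 0.1 RPKM.

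**Figure D1:**
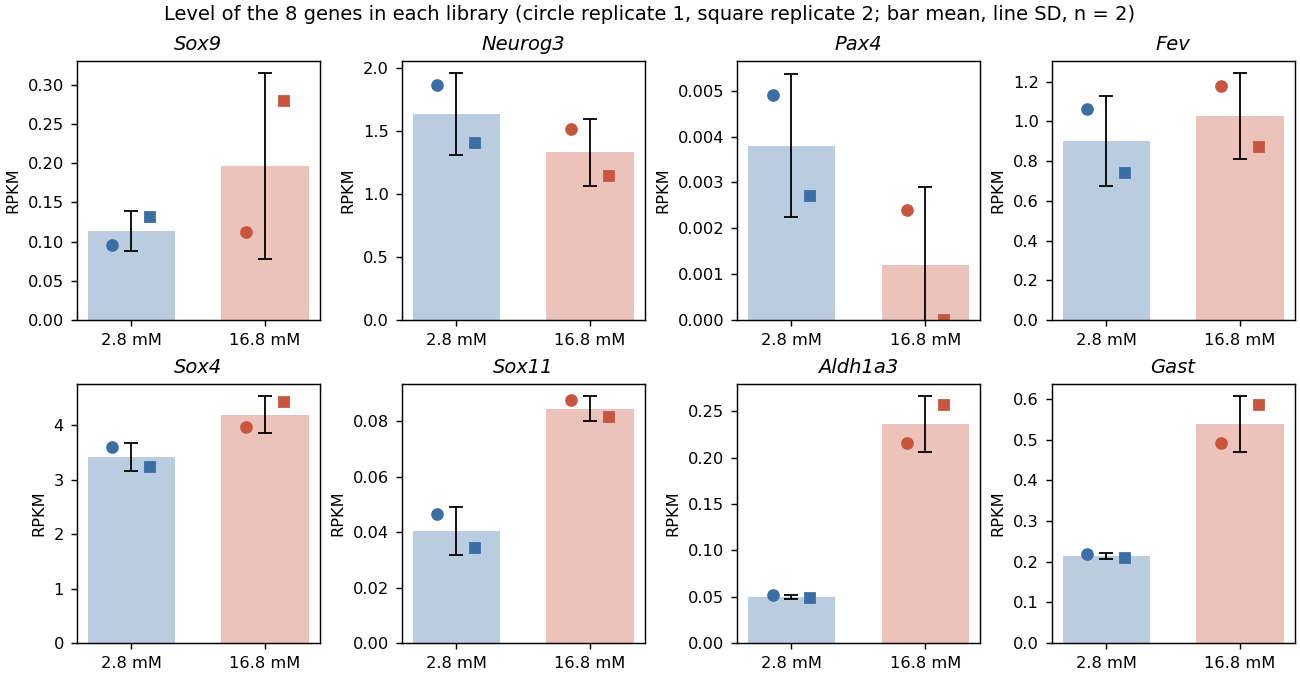
RPKM (vertical axes, each from 0 and each with its own range) of the 8 genes in the 2 LoGlu (2.8 mM, blue) and 2 HiGlu (16.8 mM, red) libraries. Circles are replicate 1 and squares replicate 2, bars are means and lines are SD, which for *Pax4* runs below the axis. The HiGlu points of *Sox4*, *Sox11*, *Aldh1a3* and *Gast* lie above both LoGlu points, and the points of *Sox9*, *Neurog3* and *Fev* overlap.

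Promoters from RefSeq (GRCm38.p6) were matched for 5 of the 8 genes, namely *Neurog3*, *Sox4*, *Sox11*, *Gast* and *Fev*, and not for *Aldh1a3*, *Pax4* and *Sox9*. The 250 bases before the start are shown for *Gast* and *Sox11*, which were higher in HiGlu by voom, and for *Neurog3*, which was not. The starts of 4 of the 5 genes matched an annotated transcript, and that of *Sox11* did not. Capitals mark the E-box CANNTG, the core that NEUROG3 and other basic helix-loop-helix factors recognise, which reads as CANNTG on both strands.
Gast promoter (chr11:100334157-100334406, plus strand): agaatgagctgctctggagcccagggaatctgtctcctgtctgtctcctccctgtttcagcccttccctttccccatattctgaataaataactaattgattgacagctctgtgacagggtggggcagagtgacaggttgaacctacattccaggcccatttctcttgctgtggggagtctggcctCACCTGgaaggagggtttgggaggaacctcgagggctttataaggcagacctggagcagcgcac
Sox11 promoter (chr12:27342719-27342968, minus strand): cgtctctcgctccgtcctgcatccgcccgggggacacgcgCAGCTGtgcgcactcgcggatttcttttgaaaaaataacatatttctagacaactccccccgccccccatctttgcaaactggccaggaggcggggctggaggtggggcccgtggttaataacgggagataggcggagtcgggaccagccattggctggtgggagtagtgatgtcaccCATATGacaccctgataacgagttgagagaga
Neurog3 promoter (chr10:62132840-62133089, plus strand): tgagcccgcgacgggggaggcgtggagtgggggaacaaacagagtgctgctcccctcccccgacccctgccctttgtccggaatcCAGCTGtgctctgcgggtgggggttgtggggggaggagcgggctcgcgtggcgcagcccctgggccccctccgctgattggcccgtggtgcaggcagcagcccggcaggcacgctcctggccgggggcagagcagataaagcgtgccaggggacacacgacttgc
The E-box was found in 66.2% of the 32851 windows of this length, so that the single one of *Gast*, the single one of *Neurog3*, the single one of *Sox4* and the 2 of *Sox11* are a description of these windows. *Fev* held none. The form CACGTG was in none of the 5 windows and in 6.02% of all windows. TATAAA, searched on both strands, was in the *Gast* window and in no other of the 5, and in 12.4% of all windows.

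*Sox9* (chromosome 11, 112643538 to 112649074 in NCBI build 37) encodes the factor of multipotent progenitors and, in the adult, of duct cells. It measured 0.0956 and 0.132 RPKM in LoGlu replicates 1 and 2, and 0.113 and 0.28 RPKM in HiGlu replicates 1 and 2, from 31, 38, 38 and 79 reads. A single library, HiGlu replicate 2, stood above the others, and the groups overlapped. The change by voom was 0.64 ± 0.38 (SE) on the log2 scale with a 95% interval from -0.21 to 1.49 (adjusted p = 0.211). It was 0.0093 without HiGlu replicate 2 (adjusted p = 0.986 by voom) and 1.31 without HiGlu replicate 1 (adjusted p = 0.007 by voom), so that its size rested on which HiGlu library was used.

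Acinar transcripts and a part of the duct markers moved with *Sox9* across the libraries. Of 15 acinar markers, 14 were lowest in LoGlu replicate 1 and highest in HiGlu replicate 2, as *Sox9* was. The duct keratin gene *Krt19* measured 1.27 and 3.96 RPKM in LoGlu and 4.31 and 7.56 RPKM in HiGlu, and the mucin gene *Muc1* measured 0.724 and 1.47 RPKM in LoGlu and 1.12 and 2.67 RPKM in HiGlu. Of 15 duct markers, 11 were highest in HiGlu replicate 2 and 7 were also lowest in LoGlu replicate 1. The duct keratin gene *Krt7* went the other way, with 20.6 and 18.8 RPKM in LoGlu and 13.8 and 12.8 RPKM in HiGlu. The defining duct genes *Cftr* and *Onecut1* were near 0 in every library, at most 0.0024 and 0.0071 RPKM. In all, 4 of the 15 duct markers had a mean under 0.1 RPKM. As described below, these values fit lengths that include introns, which lowers the level of genes with long introns. The part of exocrine RNA in the *Sox9* values was not tested.

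*Neurog3* (chromosome 10, 61595838 to 61597511) encodes the factor that starts the endocrine programme. It measured 1.86 and 1.40 RPKM in LoGlu (182 and 122 reads) and 1.52 and 1.14 RPKM in HiGlu (154 and 97 reads). The mean was 1.63 ± 0.323 RPKM in LoGlu and 1.33 ± 0.265 RPKM in HiGlu (SD, n = 2). The groups overlapped, and replicate 1 was the higher library in both. The change was -0.22 ± 0.14 (SE) on the log2(RPKM + 0.5) scale, with a 95% interval from -0.55 to 0.10 (adjusted p = 0.25, limma). Without LoGlu replicate 2 it was -0.38 and without HiGlu replicate 1 it was -0.37. It was -0.07 without LoGlu replicate 1 and also -0.07 without HiGlu replicate 2.

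The last exon of *Neurog3* shared 273 exon bases with *2010107G23Rik* on the opposite strand. That gene fell, from 4.81 and 4.001 RPKM in LoGlu to 2.57 and 2.23 RPKM in HiGlu (log2 change -0.76 ± 0.12, adjusted p = 0.00413, limma). Use of strand in the counting was not stated, so reads in the shared bases cannot be assigned to either gene.

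*Fev* (chromosome 1, 74928083 to 74931993) encodes an ETS factor of endocrine precursors and of serotonergic neurons. It measured 1.06 and 0.74 RPKM in LoGlu (242 and 150 reads) and 1.18 and 0.873 RPKM in HiGlu (280 and 173 reads). As with *Neurog3*, replicate 1 was above replicate 2 in both groups and the groups overlapped. The ratio of replicate 1 to replicate 2 was 1.43 in LoGlu and 1.35 in HiGlu for *Fev* and 1.33 in both groups for *Neurog3*. The glucagon gene *Gcg* had ratios of 1.30 and 1.42 and the pancreatic polypeptide gene *Ppy* 1.32 and 1.38, whereas the median over the transcripts tested by limma was 1.08 in either group. The part of the makeup of the islets in these values was not tested. The change of *Fev* by voom was 0.20 ± 0.22 (SE), with a 95% interval from -0.29 to 0.68 (adjusted p = 0.497).

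**Figure D2:**
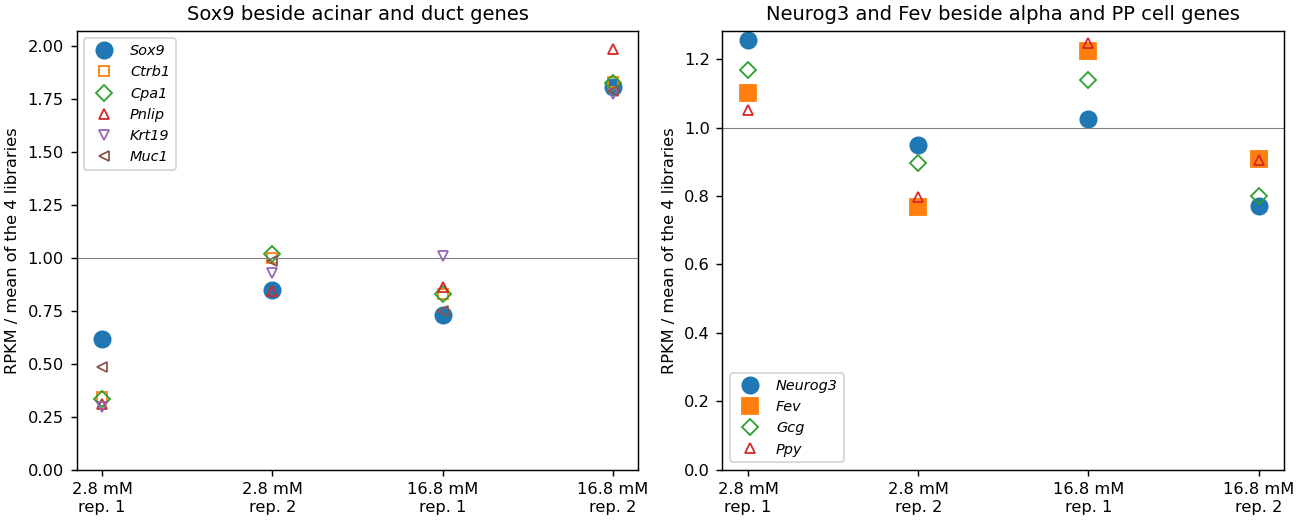
RPKM divided by the mean of the 4 libraries (vertical axes) in each library (horizontal axes), for *Sox9* with 3 acinar genes and 2 duct genes (left) and for *Neurog3* and *Fev* with *Gcg* and *Ppy* (right). *Sox9* and the exocrine genes were all lowest in LoGlu replicate 1 and highest in HiGlu replicate 2, and every gene on the right was higher in replicate 1 than in replicate 2 of its group. The genes plotted beside the 8 were chosen after their values were seen.

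*Pax4* (chromosome 6, 28392334 to 28399353), a repressor that favours the beta and delta cell fates over the alpha cell fate, was near 0. Its 3 identical entries listed 0.0049 and 0.0027 RPKM in LoGlu and 0.0024 and 0 RPKM in HiGlu, which are 2, 1, 1 and 0 reads. The 0 of HiGlu replicate 2 allows up to 3 reads, or 0.00842 RPKM, which is above the values of the other libraries. No difference was detectable at this depth. This limit covers counting error only.

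*Sox4* (chromosome 13, 29040788 to 29045582) encodes a SoxC factor of endocrine differentiation and was the most abundant of the 8. It measured 3.60 and 3.24 RPKM in LoGlu (1007 and 806 reads) and 3.96 and 4.43 RPKM in HiGlu (1152 and 1079 reads). Both HiGlu libraries were above both LoGlu libraries, with means of 3.42 ± 0.253 and 4.20 ± 0.334 RPKM (SD, n = 2). The change was 0.26 ± 0.10 (SE) on the log2(RPKM + 0.5) scale, with a 95% interval from 0.01 to 0.51, and did not pass the adjusted threshold (adjusted p = 0.0949, limma). After median centring the change was 0.35 (adjusted p = 0.0497, limma) and after quantile normalization also 0.35 (adjusted p = 0.0455, limma). These fits called 47.9% and 47.4% of all transcripts tested, and the median change of all transcripts tested was -0.11 without such scaling. The single exon of *Sox4* shared 2616 of its 4795 bases with the lincRNA gene *Gm17419* on the opposite strand. As use of strand was not stated, reads in these bases cannot be assigned to either gene.

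*Sox11* (chromosome 12, annotated transcript 28025562 to 28027574), a SoxC gene of immature neurons and endocrine precursors, was near 0 but read in every library. It measured 0.0466 and 0.0342 RPKM in LoGlu and 0.0877 and 0.0815 RPKM in HiGlu, which are 23, 15, 45 and 35 reads if the smallest whole numbers in the ratio of the values are taken. The annotated span of 2013 bases gave 5.48, 3.57, 10.7 and 8.33 reads, under the mean of 20 reads required for voom, so that the voom test of *Sox11* rests on the length inferred from its own values. The libraries of HiGlu were both above those of LoGlu, by a ratio of means of 2.09. The change by voom was 1.06 ± 0.26 (SE), with a 95% interval from 0.49 to 1.63 (adjusted p = 0.00845). Without LoGlu replicate 2 it was 0.85 and did not pass (adjusted p = 0.129, voom). The third SoxC gene, *Sox12*, fell, from 3.25 and 2.93 RPKM in LoGlu to 2.12 and 1.68 RPKM in HiGlu (log2 change -0.58 ± 0.11, adjusted p = 0.0094, limma). No stretch of 50 bases, the length of the reads, was shared by the annotated protein-coding transcripts of *Sox4*, *Sox11*, *Sox12* and *Sox9*.

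*Aldh1a3* (chromosome 7, 73535778 to 73572403), an aldehyde dehydrogenase that makes retinoic acid, had the largest change of the 7 genes tested by voom. It measured 0.0514 and 0.0484 RPKM in LoGlu (110 and 92 reads), and 0.215 and 0.257 RPKM in HiGlu (478 reads in each). The groups were far apart beside the spread within them, with means of 0.0499 ± 0.00212 and 0.236 ± 0.0297 RPKM (SD, n = 2) and a ratio of 4.73. A ratio of at least 2 was reached by 6.93% of 25499 entries with a LoGlu read. Of the 11201 such entries with a mean from 0.03 to under 1 RPKM, 5.46% reached it. The share at the ratio of *Aldh1a3* itself was not counted. By voom the change was 2.22 ± 0.18 (SE) on the log2 scale, with a 95% interval from 1.84 to 2.61 (adjusted p = 9.45e-06), and it stayed between 2.10 and 2.36 when any 1 library was left out. By limma without a minimum the change was 0.42 ± 0.03 on the log2(RPKM + 0.5) scale (adjusted p = 0.0243), a scale on which the change of so low a gene is understated.

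*Gast* (chromosome 11, 100195721 to 100198310) encodes gastrin, a peptide hormone of the fetal islet and the adult stomach. It measured 0.218 and 0.209 RPKM in LoGlu (33 and 28 reads) and 0.491 and 0.587 RPKM in HiGlu (77 reads in each). The LoGlu libraries lay close together and the HiGlu libraries both lay above them, with a ratio of means of 2.52. By voom the change was 1.31 ± 0.23 (SE), with a 95% interval from 0.81 to 1.81 (adjusted p = 0.00133), and it was between 1.19 and 1.44 when any 1 library was left out. By limma without a minimum it was 0.54 ± 0.06 on the log2(RPKM + 0.5) scale (adjusted p = 0.0303). The ratio of LoGlu replicate 1 to replicate 2 was 1.06 for *Aldh1a3* and 1.05 for *Gast*, with acinar sums of 120 and 328 RPKM in these libraries. In HiGlu the ratio was 0.837 for both genes, with acinar sums of 280 and 569 RPKM. The part of acinar RNA in these values was not tested.

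**Figure D3:**
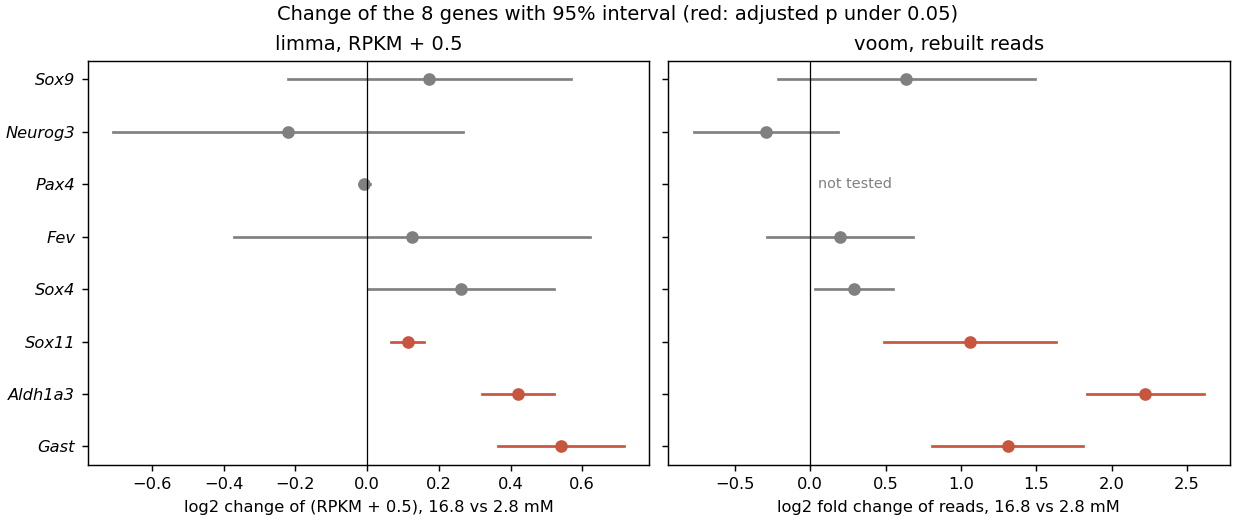
Change between HiGlu and LoGlu of the 8 genes on the log2 scale (horizontal axes) with 95% intervals, by limma on log2(RPKM + 0.5) without a minimum (left) and by voom on rebuilt reads (right), with red for an adjusted p under 0.05. *Sox11*, *Aldh1a3* and *Gast* passed in both, and *Pax4* had too few reads for voom.

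**Figure D4:**
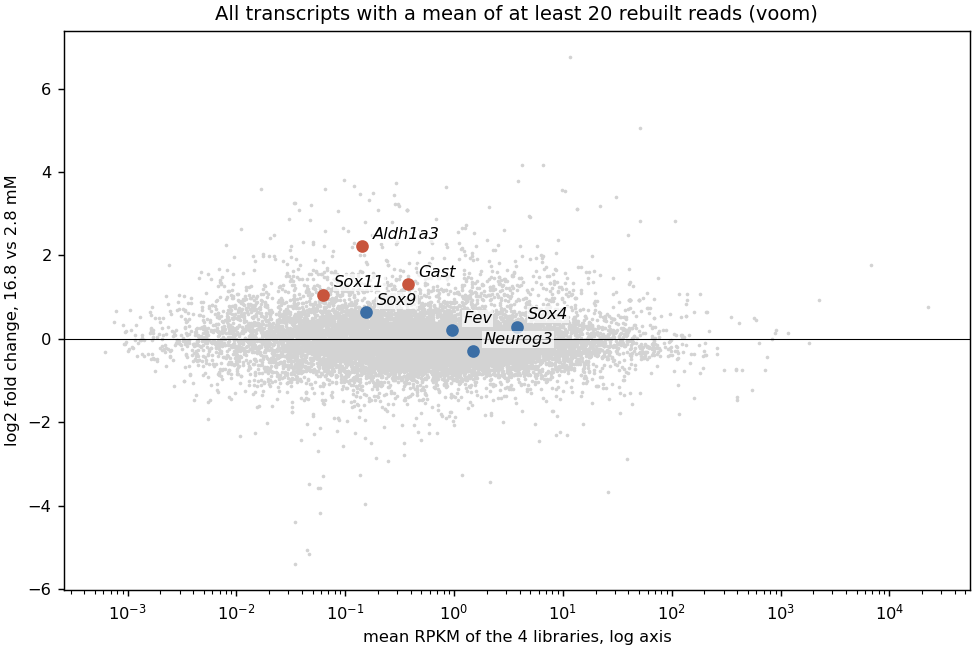
Log2 fold change by voom (vertical axis) against mean RPKM of the 4 libraries (horizontal log axis) for 16655 transcripts in grey, with 7 of the 8 genes as large points, red where the adjusted p was under 0.05. *Aldh1a3*, *Gast* and *Sox11* lie above the bulk of transcripts at their level, and *Neurog3*, *Fev* and *Sox4* lie within it.

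The order of the levels depended on the length used. With the genomic span of a gene, introns included, as its length, between 72.7% and 75.1% of low values per library came out as whole reads within 0.1 read. Exons make up 9.4% of the span of *Aldh1a3*, 17.8% of that of *Gast* and 38.1% of that of *Fev*, but 92% of that of *Neurog3* and all of that of *Sox4*. Per span, the order of the means was *Sox4*, *Neurog3*, *Fev*, *Gast*, *Sox9*, *Aldh1a3*, *Sox11* and *Pax4*, and the ranges over the libraries overlapped between the neighbours *Neurog3* and *Fev*, *Gast* and *Sox9*, *Sox9* and *Aldh1a3*, and *Aldh1a3* and *Sox11*. If all reads were exonic, *Aldh1a3* would have measured 0.531 RPKM in LoGlu and 2.51 RPKM in HiGlu, and *Gast* 1.20 and 3.03 RPKM. *Neurog3* would then have measured 1.77 and 1.44 RPKM, so that *Gast* and *Aldh1a3* were below *Neurog3* in LoGlu and above it in HiGlu. Plain ratios of RPKM do not depend on the length, whereas changes on the log2(RPKM + 0.5) scale and the minimum of 1 RPKM do, and per exon length *Fev*, *Gast* and *Aldh1a3* would have reached that minimum.

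**Figure D5:**
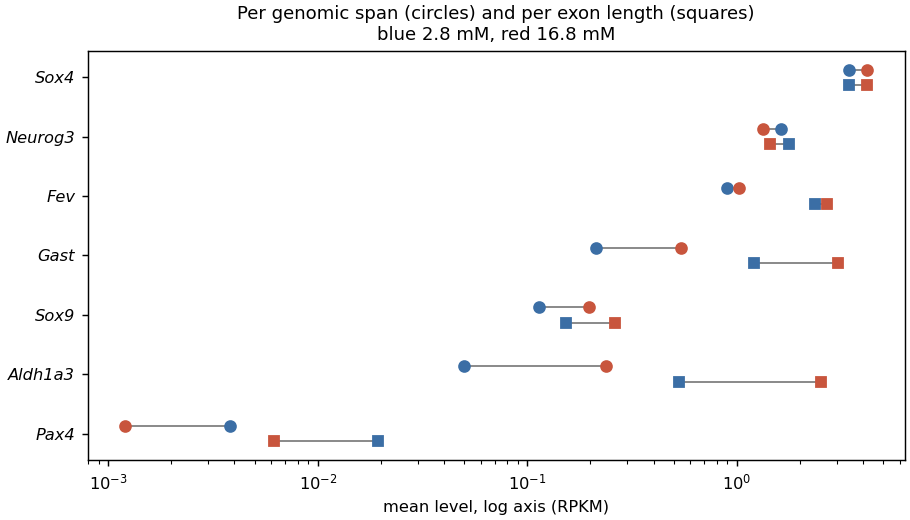
Mean RPKM on a log axis of 7 of the genes per genomic span (circles) and per exon length (squares), in LoGlu (blue) and HiGlu (red). *Sox11* is left out because its annotated length did not give whole reads. The levels of *Aldh1a3*, *Gast* and *Pax4* rise most when exon length is used, and the distance between blue and red is the same for both lengths.

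Among 25 other factors of endocrine differentiation, 15 were tested by limma, of which 7 rose, 2 fell and 6 did not pass. Their median log2 change was 0.29, beside -0.11 for all transcripts tested. Voom called 11 of 23 higher and 5 lower. Changes of the genes outside the 8 are given on the log2(RPKM + 0.5) scale with SE. *Mafa*, the factor of mature beta cells, rose from 13.7 and 10.2 RPKM to 57.5 and 76.2 RPKM (log2 change 2.44 ± 0.19, adjusted p = 0.00042, limma). *Pdx1*, needed for pancreas formation and for mature beta cells, rose by 1.30 (adjusted p = 0.000595, limma), and the motor neuron and beta cell factor gene *Mnx1* by 0.98 (adjusted p = 0.00139, limma). Those that fell by limma were *Rfx6*, by 0.46 on the log2 scale (adjusted p = 0.0109, limma), and *Myt1*, by 0.41 (adjusted p = 0.0119, limma). Both are known to act close to *Neurog3*.

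Of 21 genes of multipotent progenitors and the Notch pathway, 3 were tested by limma and 2 rose, *Mnx1* and *Hes1*. Voom called 4 of 19 higher and 2 lower. *Hes1*, the Notch target that represses *Neurog3*, went from 2.25 and 2.19 RPKM to 3.19 and 3.12 RPKM (log2 change 0.43 ± 0.09, adjusted p = 0.0101, limma). Among 15 further genes described in dedifferentiated beta cells, 5 were tested by limma, of which 3 rose and 2 did not pass. Voom called 5 of 11 higher and 0 lower. *Ldha*, which is kept low in mature beta cells, rose from 1.82 and 3.81 RPKM to 10.7 and 9.39 RPKM (adjusted p = 0.00379, limma), the thyroxine-binding globulin gene *Serpina7* rose from 1.39 and 1.56 RPKM to 4.06 and 5.22 RPKM (adjusted p = 0.000613, limma), and the vitamin D-binding protein gene *Gc* rose by 0.39 (adjusted p = 0.0456, limma). *Pou5f1* and *Nanog*, the pluripotency genes of the list, had no value above 0.0608 and 0.0272 RPKM. *Mycl* and *Bach2* had no voom result and were lower in both HiGlu libraries. *Mycl* measured 0.121 and 0.124 RPKM in LoGlu and 0.0516 and 0.0185 RPKM in HiGlu. *Bach2* measured 0.0591 and 0.0541 RPKM in LoGlu and 0.0171 and 0.0169 RPKM in HiGlu.

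Relatives of the 8 genes were mostly low per genomic span, introns included. The other retinaldehyde dehydrogenases *Aldh1a1*, *Aldh1a2* and *Aldh1a7* had no value above 0.0246, 0.0087 and 0.0067 RPKM, and neither of the 2 genes tested by limma among 17 of retinoid metabolism and signalling passed or had an unadjusted p under 0.05. Voom called 0 of 11 higher and 1 lower. Of the neurogenin and Pax family, 9 of 10 genes had a mean under 0.1 RPKM, and *Pax6* rose by 0.58 (adjusted p = 0.0108, limma). Of 16 other Sox genes, 11 had a mean under 0.1 RPKM and *Sox12* was the one tested by limma. Voom called 1 of 9 higher, *Sox7* (adjusted p = 0.00831, voom). It called 2 lower, *Sox12* (adjusted p = 0.00341, voom) and *Sox6* (adjusted p = 0.044, voom).

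Genes that act with gastrin and with FEV were read as well, again per genomic span. *Cck*, the gene of the related peptide cholecystokinin, measured 0.0903 and 0.0525 RPKM in LoGlu and 0.121 and 0.0805 RPKM in HiGlu, and the gastrin receptor gene *Cckbr* had no value above 0.0094 RPKM. Of 4 genes tested by limma in the gastrin list, 3 rose, all of which encode enzymes that process peptide hormones. *Pcsk1* rose from 2.60 and 2.40 RPKM to 9.18 and 10.9 RPKM (adjusted p = 0.000184, limma). *Pam* rose by 0.87 (adjusted p = 0.000906, limma) and *Pcsk2* by 0.58 (adjusted p = 0.00679, limma). Voom called 4 of 9 genes of this list higher and 0 lower. Of 12 serotonergic genes, 2 were tested by limma and *Ddc*, the aromatic amino acid decarboxylase gene, rose by 0.81 (adjusted p = 0.00234, limma). Voom called 4 of 9 serotonergic genes higher and 2 lower. The serotonin-synthesis gene *Tph1* and the transporter gene *Slc6a4* had no value above 0.0093 and 0.0047 RPKM. The other serotonin-synthesis gene, *Tph2*, was low as well, at 0.008 and 0.0058 RPKM in LoGlu and 0.0279 and 0.0287 RPKM in HiGlu. Its log2 change by voom was 2.03 ± 0.22 (adjusted p = 7.38e-05, voom).

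Markers of other cells that could carry these genes were counted in the same fit. None of 12 acinar markers tested passed in limma, with a median log2 change of 1.02, 5 of them had an unadjusted p under 0.05, and voom called 7 of 15 higher in HiGlu. Of 8 duct markers tested, *Spp1* rose by 0.67 (adjusted p = 0.0358, limma) and *Krt7* fell by 0.55 (adjusted p = 0.015, limma), and voom called 6 of 11 higher and 1 lower. The single endothelial, stromal and Schwann cell markers tested and the 3 delta cell markers tested did not pass in limma, where 1 delta cell marker had an unadjusted p under 0.05. Voom called 2 of 10 endothelial, 0 of 9 stromal, 2 of 8 leukocyte and 1 of 4 delta cell markers higher. It called 1 of 5 Schwann cell markers lower. Of 3 leukocyte markers tested by limma, *Cd14* rose by 0.76 (adjusted p = 0.000831, limma). The summed level was between 3.91 and 6.33 RPKM for the 11 endothelial, between 2.71 and 4.62 RPKM for the 11 stromal and between 2.09 and 3.00 RPKM for the 7 Schwann cell markers, with overlapping groups for the first 2 lists and lower HiGlu sums for the last. The part of these cells in the values of *Sox11*, *Aldh1a3* and *Gast* was not tested.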

How the data were processed

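RNA-seq libraries were made with the TruSeq v2 kit and read at 50 cycles. The authors deposited RPKM values per RefSeq transcript (33923 entries). The submitters' processing notes name STAR, bedtools, DESeq and mm9, and the paper's methods name bedtools counts on exons defined by RefSeq, after describing the alpha and beta cell libraries. How these islet libraries were counted is not given apart. Samples were grouped by title. Identical entries were used once, leaving 28047. Entries averaging 1 RPKM or more entered limma 3.58.1 as log2(RPKM + 0.5) (R 4.3.3; variance trend, Benjamini-Hochberg adjustment at 0.05). Depth was recovered from steps of low values with spans of the NCBI build 37 annotation (GENCODE vM1), at which 72.7% to 75.1% of low values per library were whole within 0.1 read, against 13.9% to 16.4% at a wrong depth. Reads were rebuilt for the 87.3% of entries with a span, and those with a mean of at least 20 reads were tested with voom. The length of *Sox11* was inferred from its values as 8459 bases. Genes named were the 8, up to 3 rises and 3 falls with the largest change in each list, and relatives of the 8. The 8 genes and the lists were chosen with earlier results of these data known. The tests were tried on simulated data. Alternatives were other added values, minima and scalings, no variance trend, a replicate block, other handling of entries, voom, and leaving out each library. Figures used matplotlib.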

Additional observations from a re-analysis of the deposited data

How the results depend on the processing

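What can be called is limited by the 2 libraries per group and, for genes with few reads such as *Pax4*, *Sox11* and *Gast*, by the depth. Of 136 values of the 8 genes under the alternatives, 131 kept their direction and no called value changed sign. This count includes settings, such as limma without variance trend or with a replicate block, in which the change itself could not move. Fits without a minimum that add 0.1 RPKM or a block, and voom without single libraries, were chosen after seeing the data.

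The number of the 8 genes called by limma was 0 of 2 tested, and it was 3 without a minimum and 3 with 0.1 RPKM added as well, 1 of 2 after quantile normalization (47.4% of all transcripts tested), 1 of 2 after median centring (47.9%), 3 by voom and between 0 and 1 when a library was left out (2 to 4 by voom). Over all transcripts 2628 were called by limma (2039 to 2734 without single libraries) and 6706 by voom (3054 to 5537 without single libraries, the lowest without LoGlu replicate 1). Genes of the lists called were 25, and they were 41 with at least 1 RPKM in every library, 65 by voom and between 26 and 43 when a library was left out (41 to 57 by voom).

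Replicate numbers are shared by only 2 pairs, and deviations of libraries with the same number correlated at 0.31 over 7867 transcripts, so they may share only a number. With a replicate block limma called 4067 transcripts (51.7%), 44 list genes and, of the 8 genes, 1 of the 2 tested, *Neurog3* (-0.22, adjusted p = 0.0267, limma). Without a minimum the replicate block left 0 transcripts by limma, although 10521 had an unadjusted p under 0.05, 0 list genes and 0 of the 8 (adjusted p between 0.0512 and 0.0515 for *Aldh1a3*, *Gast* and *Sox11*, limma). Voom with a replicate block called 9320 of 16655 transcripts, 95 list genes and, of the 8 genes, 5 of the 7 it could test. These were *Sox9* at 0.70 (adjusted p = 0.0419, voom), *Sox4* at 0.29 (adjusted p = 0.0343, voom), *Sox11* at 1.05, *Aldh1a3* at 2.23 and *Gast* at 1.31. *Neurog3* was not called, at -0.30 (adjusted p = 0.0919, voom).

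With 0.1 RPKM added the log2 change was 0.42 for *Sox9*, 0.40 for *Sox11*, 1.16 for *Aldh1a3*, 1.02 for *Gast* and -0.0366 for *Pax4*, with or without a minimum, and with 1 RPKM added it was 0.06 for *Sox11*, 0.24 for *Aldh1a3* and 0.34 for *Gast*. Without a minimum it was 0.11, 0.42 and 0.54 for these 3. By voom it was 0.64 for *Sox9*, 1.06 for *Sox11*, 2.22 for *Aldh1a3* and 1.31 for *Gast*, and by the plain ratio of means 0.79, 1.07, 2.24 and 1.34 for these 4 and -1.66 for *Pax4*. *Sox4* was 0.35 after quantile normalization and after median centring. Over the limma scale without single libraries the change ranged from -0.38 to -0.0653 for *Neurog3*, -0.0015 to 0.35 for *Sox9*, 0.19 to 0.33 for *Sox4*, 0.10 to 0.13 for *Sox11*, 0.38 to 0.46 for *Aldh1a3*, 0.47 to 0.61 for *Gast*, -0.04 to 0.29 for *Fev* and -0.0109 to -0.004 for *Pax4*. By voom it ranged from -0.50 to -0.09 for *Neurog3*, 0.0093 to 1.31 for *Sox9*, 0.21 to 0.37 for *Sox4*, 0.85 to 1.28 for *Sox11*, 2.10 to 2.36 for *Aldh1a3*, 1.19 to 1.44 for *Gast* and -0.05 to 0.46 for *Fev*. The cause of these differences was not tested.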
